A study of Mus musculus with 22 samples.

Results

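Serotonin neurons of the raphe nuclei, along the midline of the midbrain and hindbrain, were followed through 6 genes in 22 brain fractions: Tph2, Slc6a4, Fev, Gata2, Gata3 and Lmx1b. The genes were taken as a named list, and each was read from the RefSeq-identified probe with the highest median over the 22 arrays, out of 20129 gene symbols read in the same way. All 6 were among the 39621 probes tested, a set that needed a signal well above background somewhere in each of the 3 series. The fractions came from 3 male C57BL/6J mice without any treatment or transgene, with 10 fractions in the coronal series of 1 mouse, 6 in the horizontal series of another and 6 in the sagittal series of the last. The mice were 7 days old by the sample and series titles and the dataset description, whereas the age field of the labels names 3 days. Each fraction pooled the slices of 1 or more slabs of brain and was hybridised once, so every value has no replicate, and fractions of a series share 1 animal.

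Serotonin is made in a small set of neurons that send axons to nearly all of the brain. Tryptophan hydroxylase makes the precursor, an aromatic amino acid decarboxylase completes the synthesis, a vesicular transporter loads it into vesicles and a plasma membrane transporter takes it back up. A set of transcription factors that includes Gata2, Gata3, Lmx1b and Fev sets up and maintains this identity in raphe neurons, and most of these factors also serve other cells: Gata2 and Gata3 act in GABA neurons of the midbrain and hindbrain and in blood lineages, and Lmx1b acts in dopamine neurons. In a slab of brain, fewer cells of a type and less RNA per cell cannot be told apart.

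Levels are given on the log2 scale, as the log2 intensity of a probe minus the array's 75th percentile, so that 1 unit is a doubling and a value below 0 lies under that percentile. Levels of different genes come from different probes and were not compared with each other. Along the coronal series, all 5 Hox genes listed for the medulla and spinal level fell from fraction 1 to fraction 10 (limma, adjusted p under 0.05 for each), and all 3 olfactory bulb genes listed (Tbx21, Cdhr1 and Eomes) rose, so that fraction 1 lay at the caudal end. Along the horizontal series the hypothalamic peptide gene Avp rose and the cortical gene Neurod6 fell, so that fraction 6 lay at the ventral end. Feature Extraction set the slope of the E1A spike-in controls out of range on 7 of the 22 arrays (coronal fractions 1 and 2, horizontal fractions 1 to 3 and sagittal fractions 1 and 3). Those arrays called 36119 to 41965 probes well above background, and the other 15 called 29605 to 36342. Coronal fractions 3, 4 and 5 shared 1 slide and were all in range.

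The list includes GATA, ETS and homeodomain factors, so the sequences before the annotated starts of Tph2, Slc6a4 and Fev, the 3 members least shared with other neurons, are shown with the words such factors bind. They come from RefSeq on GRCm38.p6. The Tph2 window is chr10:115185023-115185272 on the minus strand, the Slc6a4 window is chr11:76998347-76998596 on the plus strand, and the Fev window is chr1:74885474-74885658 on the minus strand, shortened to 185 bases where an annotated transcript of the gene begins. Each is written 5′ to 3′ on the gene's strand, and capitals mark the words searched on both strands: AGATAA for GATA, also with T in the first place or G in the last or both, then AGGAAG for ETS, also with C in the first place, and TAATTA for homeodomain proteins.
Tph2: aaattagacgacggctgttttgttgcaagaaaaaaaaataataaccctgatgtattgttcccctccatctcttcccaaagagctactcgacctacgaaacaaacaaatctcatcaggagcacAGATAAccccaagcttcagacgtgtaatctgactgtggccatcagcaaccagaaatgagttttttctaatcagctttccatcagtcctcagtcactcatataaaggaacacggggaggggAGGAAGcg
Slc6a4: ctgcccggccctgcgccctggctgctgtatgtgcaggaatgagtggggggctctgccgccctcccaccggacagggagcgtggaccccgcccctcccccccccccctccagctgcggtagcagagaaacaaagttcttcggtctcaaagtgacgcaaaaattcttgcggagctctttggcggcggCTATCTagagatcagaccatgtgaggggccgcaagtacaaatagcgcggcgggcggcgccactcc
Fev: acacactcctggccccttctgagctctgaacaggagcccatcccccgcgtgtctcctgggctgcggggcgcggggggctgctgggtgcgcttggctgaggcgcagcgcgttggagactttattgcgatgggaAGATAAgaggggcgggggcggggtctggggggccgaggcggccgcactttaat
Each of the 3 windows held 1 GATA word: AGATAA in Tph2, CTATCT, which is AGATAG read on the other strand, in Slc6a4, and AGATAA in Fev. Of 32851 RefSeq promoter windows, 26.5% held such a word in 250 bases and 22.0% in 185 bases. Only Tph2 held an ETS word, AGGAAG, near the end of the window, and 39.2% of windows of 250 bases held one. None of the 3 held TAATTA, which 4.84% of windows of 250 bases and 3.93% of windows of 185 bases held. A word match is a description of these letters.

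Tph2, the tryptophan hydroxylase of brain neurons, was highest in coronal fraction 4. Its log2 levels in coronal fractions 1 to 5 were -3.00, -3.87, -3.72, -1.58 and -2.31. In fractions 6 to 10 it was not well above background on any array, with measured values from -5.81 to -4.96. The transcript was therefore detected in the 5 caudal fractions and not in the 5 rostral ones. Fraction 4 stood 4.41-fold over fraction 3, 1.66-fold over fraction 5 and about 10.8-fold over fraction 6. For a level not well above background, the fold uses the higher of the probe's own signal and the lowest signal well above background on that array. Probes above that lowest signal could also miss the call, as Fev did in fraction 6 (-4.43 beside -5.02), so such folds are approximate. Against fractions 7, 8, 9 and 10 these approximate folds ran from 10.4 to 18.2. The gap between fractions 4 and 5 was 0.73 log2 units, less than the scatter of 1.26 (SD of single arrays around the fitted curves).

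Slc6a4, the plasma membrane serotonin transporter, had the largest gap among the 6 members between its highest coronal fraction and the next. Its log2 levels in coronal fractions 1 to 10 were -1.79, -2.24, -1.06, 1.31, -1.48, -0.74, -3.13, -2.97, -2.64 and -3.22, all well above background. Fraction 4 was 5.16-fold over fraction 3 and 6.90-fold over fraction 5. The next level down the order, in fraction 6, was 2.05 log2 units lower than fraction 4, beside a scatter of 1.08. That scatter is of single arrays, and a difference between 2 arrays varies more. Fraction 4 was also taken as the highest, so the gap is a description. Fraction 6 was itself 1.67-fold over fraction 5 and 5.25-fold over fraction 7, and the first of these is within the scatter. Tph2 and Fev were not well above background in fraction 6. Of the 4 listed thalamic genes, Prox1 and Lef1 had their highest coronal levels in fraction 6, at -1.35 and 0.03. Gbx2 stood at -0.63 there, was highest in fraction 7 at -0.15 and read -0.72 in fraction 1. Rora stood at 0.84 in fraction 6 and was highest in fraction 1 at 0.88. The hypothalamic genes Avp, Pmch and Hcrt were also highest in fraction 6, at 2.83, 3.56 and 3.47. Oxt, the other hypothalamic gene listed, read 2.21 there and was highest in fraction 7 at 3.11. The part of either region in the Slc6a4 level was not tested. Transient Slc6a4 expression in thalamic neurons that take up serotonin in early postnatal life is known from other work.

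Fev, the ETS factor also called Pet1 that is largely restricted to serotonin neurons in the brain, was also highest in coronal fraction 4. Its log2 levels in coronal fractions 1 to 5 were -2.90, -3.57, -2.91, -1.33 and -4.25, and in fractions 8 to 10 they were -3.50, -3.32 and -4.11. Fractions 6 and 7, at -4.43 and -4.78, were not well above background. Fraction 4 was 3.01-fold over fraction 3, 7.58-fold over fraction 5 and about 8.61-fold over fraction 6. The gap to the next level, in fraction 1, was 1.58, beside a scatter of 0.82 for single arrays, and is likewise a description. Unlike Tph2, Fev was already low in fraction 5, and it was well above background again in fractions 8 to 10, where Tph2 was not.

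Gata3, a zinc finger factor that serotonin neurons share with GABA neurons, was high over a broader stretch. Its log2 levels in coronal fractions 1 to 10 were -1.85, -1.10, -0.74, 1.17, 0.71, -2.42, -4.15, -2.71, -3.71 and -4.01. Fractions 4 and 5 were the highest and differed by 0.45, less than the scatter of 1.1, and fraction 5 was 8.77-fold over fraction 6. Gata2, its paralogue, varied less: -1.86, -1.13, -2.13, -1.28, -1.78, -2.67, -2.88, -2.12, -3.15 and -3.73. Its 2 highest levels, in fractions 2 and 4, differed by 0.15, within the scatter of 0.45.

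Lmx1b, a LIM-homeodomain factor, had no maximum in fraction 4. Its log2 levels in coronal fractions 1 to 10 were -1.94, -1.24, -3.11, -3.05, -2.87, -3.53, -3.68, -2.64, -2.18 and -2.43. Fractions 1 and 2, the highest, were both on arrays with the spike-in slope out of range. The second Lmx1b probe gave -2.49 and -2.52 in fractions 1 and 2 and -3.40 in fraction 4, and the 2 probes correlated at r = 0.66 over the 22 arrays.

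**Figure D1:**
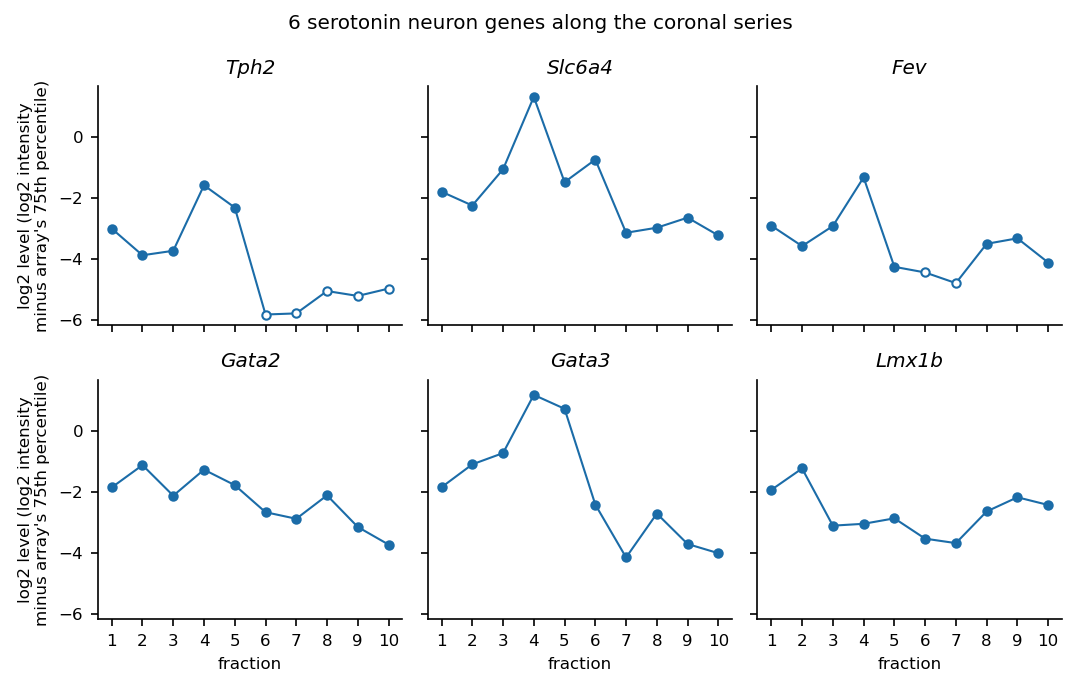
Log2 level (log2 intensity minus the array's 75th percentile, vertical axis) of the 6 genes in coronal fractions 1 (caudal) to 10 (rostral), with 1 array per point; open points were not well above background. Tph2, Slc6a4, Fev and Gata3 peak in fraction 4, at -1.58, 1.31, -1.33 and 1.17, whereas Gata2 and Lmx1b are highest in fraction 2.

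Fraction 4 was then set against fractions 3 and 5, gene by gene, with a call for a level above both neighbours by more than 1 log2 unit. Slc6a4 and Fev were called, 2 of the 6 members, beside 527 of the 39621 probes tested (1.33%). Above the higher neighbour, Slc6a4 stood by 2.37 and Fev by 1.59 log2 units. With normexp, another background correction, run on median signals, Fev stood above by 0.84 and lost the call, and 76 probes were called. Tph2 exceeded fraction 3 by 2.14 but fraction 5 by 0.73, and Gata3 exceeded them by 1.90 and 0.45. Gata2 exceeded them by 0.85 and 0.51. Lmx1b differed from fraction 3 by 0.06 and from fraction 5 by -0.18. The median of the 6 differences from the higher neighbour was 0.62, beside -0.28 over all probes tested. For Slc6a4, 23 of the 39621 probes had a larger difference, and for Fev 111 did. For Tph2 the number was 990, for Gata2 1695, for Gata3 1948 and for Lmx1b 15506. The highest coronal level lay in fraction 4 for 4 of the 6 members, beside 4.50% of all probes tested.

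**Figure D2:**
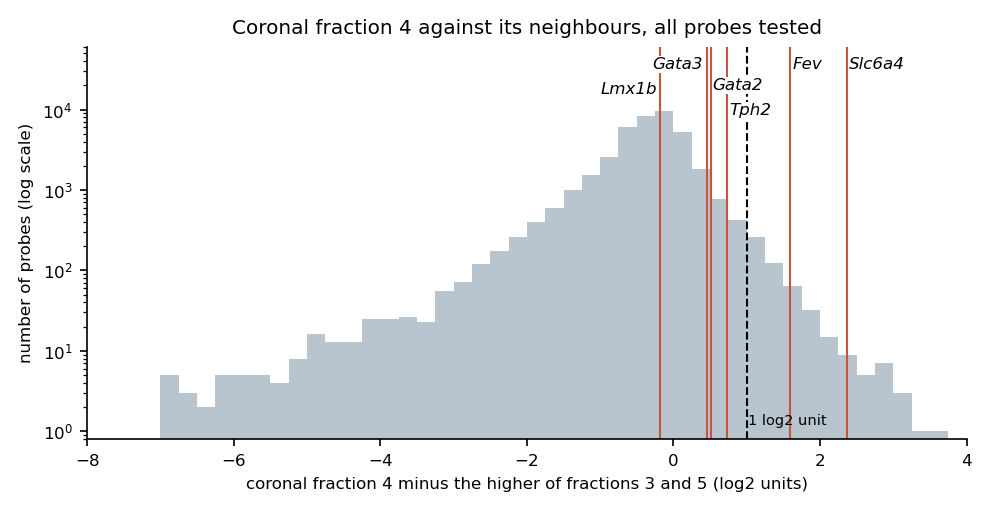
Number of probes (log scale) by the level in coronal fraction 4 minus the higher of fractions 3 and 5, in log2 units, over the 39621 probes tested; red lines mark the 6 genes and the dashed line 1 log2 unit. Fev at 1.59 and Slc6a4 at 2.37 lie beyond the dashed line, and Lmx1b at -0.18 lies near the bulk of the probes.

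The departure of fraction 4 from the whole coronal curve, which is not its difference from fractions 3 and 5, was given an error by adding a term for that fraction to curves fitted through all 22 arrays in limma. The term was 2.89 ± 0.88 (SE, log2 units) for Slc6a4, 2.55 ± 1.17 for Tph2, 2.51 ± 0.57 for Fev and 2.43 ± 0.99 for Gata3. It was 0.63 ± 0.47 for Gata2 and -0.14 ± 0.54 for Lmx1b. After Benjamini-Hochberg adjustment over all probes, limma called none of the 39621 probes (0%), members included; 976 probes had an unadjusted p under 0.05, and no other tool was run on this term. The unadjusted limma p was 0.000646 for Fev, 0.00544 for Slc6a4, 0.0284 for Gata3 and 0.0474 for Tph2, and the adjusted p was 0.394 for Fev and 0.963 for Slc6a4. The level of no member in fraction 4 was therefore separated from the scatter of single arrays after adjustment.

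Whether a gene changed smoothly with position was tested in limma with a quadratic curve for each series. Along the coronal axis, Gata2 (adjusted p = 0.0121) and Gata3 (adjusted p = 0.0310) passed, 2 of the 6 members, beside 19.8% of all probes tested. The fitted curve of Gata3 spanned 4.19 log2 units and that of Gata2 2.11, with a lower rostral than caudal end in both. Of 3 red blood cell genes tested, 2 also fell toward the rostral end: the globin gene Hba-a1 went from 5.94 to 4.01 (adjusted p = 0.00378) and Alas2, of haem synthesis, from 0.21 to -1.33 (adjusted p = 0.00568). Gata1, the GATA factor of red blood cells, was not well above background on any coronal array, and the part of blood in the Gata2 and Gata3 levels was not tested. The median linear change over the 6 members was -2.10 log2 units from fraction 1 to fraction 10, beside -0.14 over all probes. Lmx1b (0.0529), Slc6a4 (0.142), Tph2 (0.204) and Fev (0.378) had adjusted p above 0.05. Both calls were lost with slide as a block (Gata2 0.439, Gata3 0.228), with the coronal arrays alone (0.0825 and 0.155), with arrays of in-range slope alone (0.0739 and 0.0809) and with normexp, another background correction, run on median signals with an offset of 50 in place of the processed signals (0.0538 and 0.0709). The Gata2 call was also lost without coronal fraction 10 (0.0661) and the Gata3 call without fraction 2 (0.0523) or 9 (0.0700) and with linear terms alone (0.0945). Lmx1b passed with normexp (0.0289), among probes detected on all 22 arrays (0.0302) and without coronal fraction 3 (0.0487), 8 (0.0439) or 10 (0.0405) or horizontal fraction 1 (0.0479) or 2 (0.0433).

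Along the horizontal axis, from the dorsal end in fraction 1 to the ventral end in fraction 6, none of the 6 members passed (limma, adjusted p from 0.122 to 0.881), beside 6.57% of all probes tested. Slc6a4 read -4.18 in fraction 1, not well above background, and then -3.82, -2.01, -0.84, -1.32 and -1.72. Its level in fraction 4 was about 10.2-fold over fraction 1. The spike-in slope was out of range on the arrays of fractions 1 to 3 and in range on those of fractions 4 to 6, and its part in this difference was not tested. Tph2 read -3.38, -3.80, -4.89, -3.65, -3.54 and -3.66, with only fraction 3, the lowest, not well above background. Fev stayed between -3.51 and -2.76. Gata3 was highest in fraction 2 at -0.29 and lowest in fraction 6 at -2.52, and Gata2 ranged from -2.60 in fraction 4 to -1.35 in fraction 2. Lmx1b ranged from -3.33 in fraction 6 to -1.62 in fraction 2.

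Raphe nuclei lie at the midline, and the sagittal series ran from one side of the brain to the other. Slc6a4 read -6.99 in fraction 1, not well above background, and then -1.50, -0.71, -0.36, -2.01 and -2.92. The middle fractions were thus the highest, with fraction 4 about 47.8-fold over fraction 1, whose array had the slope out of range. Gata3 read -3.13, -1.35, 0.13, -0.45, -0.82 and -3.33, with its highest level in fraction 3 and its lowest levels in fractions 1 and 6. Tph2 was highest in fractions 4 and 3, at -3.12 and -3.45, and not well above background in fractions 1 and 5; it was detected in fraction 6 at -4.09. Fev was highest in fraction 4 at -2.25, with fraction 6 next at -2.43. Gata2 lay between -2.75 and -1.98, and Lmx1b between -2.88 and -1.79, with its lowest level in fraction 4. In limma, the difference of the outer from the middle fractions in the quadratic term was -4.38 ± 0.99 (SE) for Slc6a4 and -3.04 ± 1.00 for Gata3, the middle being higher. Neither passed (adjusted p = 0.0747 and 0.165), nor did the other 4 members, beside 0.0303% of all probes tested; Slc6a4 passed without scaling of the arrays (0.0495). In the linear term, which sets one side against the other, no member passed (adjusted p from 0.201 to 0.919), beside 10.2% of all probes.

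**Figure D3:**
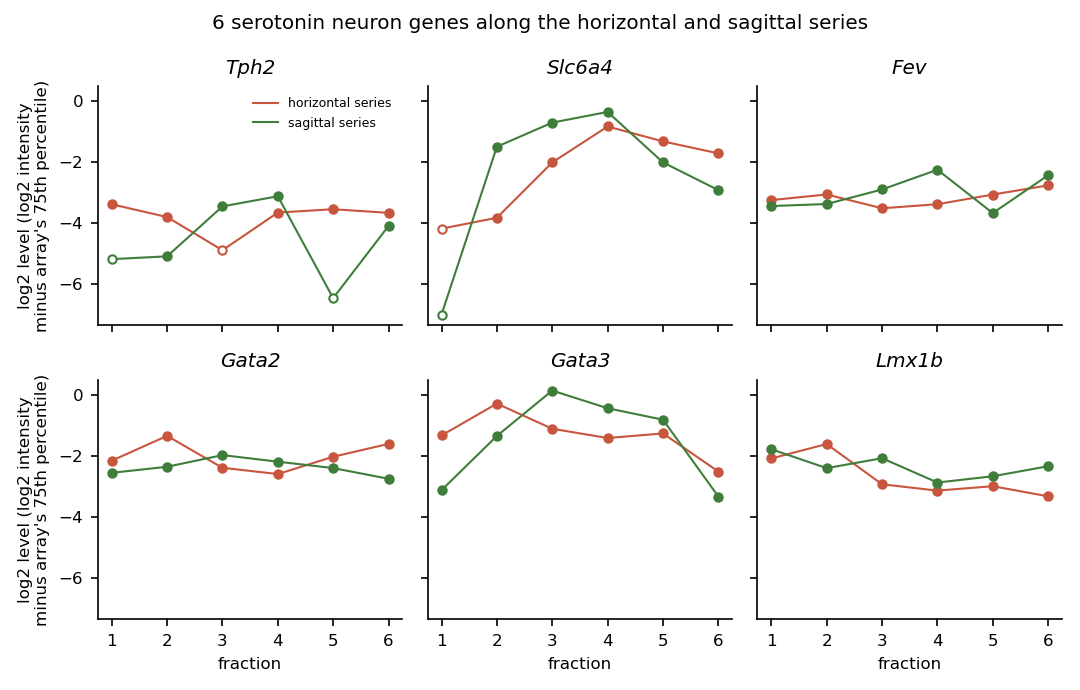
Log2 level of the 6 genes in horizontal fractions 1 (dorsal) to 6 (ventral) and in sagittal fractions 1 to 6 from side to side, with 1 array per point; open points were not well above background. Slc6a4 and Gata3 rise in the middle sagittal fractions, to -0.36 and 0.13, and Fev stays between -3.51 and -2.76 along the horizontal axis.

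The other genes of the serotonin pathway were read from a list of 12 genes of synthesis, storage and breakdown, of which 11 were tested. Along the coronal axis 3 of the 11 passed in limma, 2 of them falling toward the rostral end and 1 rising, beside 19.8% of all probes tested. Ddc, the aromatic amino acid decarboxylase that dopamine neurons also use, was 2.36, 3.26 and 2.07 in coronal fractions 3, 4 and 5 and 0.04 in fraction 9 (adjusted p = 0.0255). Slc18a2, the vesicular monoamine transporter, was -0.16, 0.87 and 0.72 in fractions 3, 4 and 5 and -1.33 in fraction 10 (adjusted p = 0.0448). Spr, sepiapterin reductase of cofactor synthesis, rose from -0.08 in fraction 1 to 1.51 in fraction 10, with 1.94 in fraction 8 (adjusted p = 0.0219). Ddc, Slc18a2 and Gch1, which encodes the first enzyme of the cofactor tetrahydrobiopterin, had their highest coronal levels in fraction 4, but none of the 11 stood above both neighbours by more than 1 log2 unit, and the median difference from the higher neighbour was -0.01. Along the horizontal axis Ddc alone of the 11 passed in limma, beside 6.57% of all probes tested, with -0.10 dorsally and 2.60 ventrally (adjusted p = 0.030). In the sagittal linear term Pts alone passed, beside 10.2% of all probes, with a term of 1.55 (adjusted p = 0.0129). Its levels were 0.93 in sagittal fraction 1 and 2.29 in fraction 6. Fitted to the arrays of its own series alone, neither test called any probe. Tph1, the tryptophan hydroxylase of the pineal gland and periphery, read -4.20 in coronal fraction 4 and was highest in that series in fraction 10 at -1.99. Its highest level over the 22 arrays was -0.41, in sagittal fraction 4, beside -4.36 to -3.02 in the other sagittal fractions, and it passed no position test in limma. Slc22a3 was not well above background on any array and was not tested.

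Of 3 autoreceptor genes listed, 2 were tested and neither passed a position test in limma. Htr1a read -3.20 and -2.92 in coronal fractions 4 and 5 and was not well above background in fractions 2 and 3. Htr5b read -1.07 in fraction 4 and was highest in fraction 6 at -0.62.

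Of 8 further transcription factors of raphe development, 7 were tested, and along the coronal axis 3 passed, 2 falling toward the rostral end and 1 rising, beside 19.8% of all probes tested. En2, which marks the midbrain and hindbrain border, was 3.17 in fraction 2, 1.36 in fraction 4 and -1.38 in fraction 5 (limma, adjusted p = 0.00125). Insm1 was 5.11, 3.35 and 1.46 in fractions 3, 4 and 5 (adjusted p = 0.00917). Meis2 rose to 5.29 in fraction 10 (0.00238). Nkx6-1 read -0.34 in fraction 1, -1.62 in fraction 4 and -3.52 in fraction 10, and Nkx2-2 lay between -0.36 and 0.68 along the series; neither passed. En1 was well above background in coronal fractions 3 and 4 and sagittal fraction 4 alone and was not tested. Insm1 also acts in newborn neurons elsewhere. Foxa2, a floor plate factor that dopamine neurons express, was not well above background in coronal fraction 3. It read -0.99 in fraction 4 and -1.01 in fraction 5, with fraction 4 about 19.5-fold over fraction 3. Along the horizontal axis 2 of the 7 passed in limma, beside 6.57% of all probes tested. Insm1 was highest in the middle, at 0.39, 1.94, 4.34, 3.85, 2.16 and 1.04 in fractions 1 to 6 (adjusted p = 0.0449), and Pou3f2 fell from -0.05 to -1.30 (adjusted p = 0.0478). Both calls were lost with the horizontal arrays alone, where limma called no probe.

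**Figure D4:**
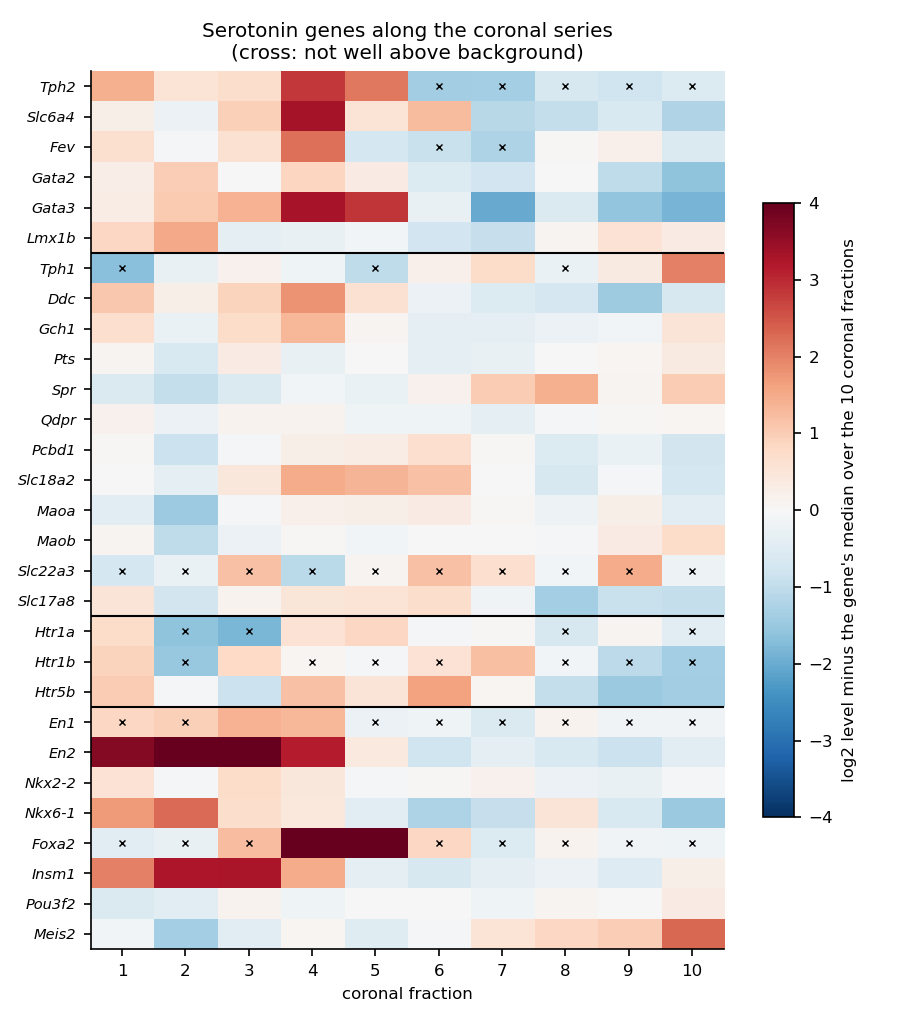
Log2 level minus the gene's own median over the 10 coronal fractions (colour, limited at -4 and 4 log2 units) for the 6 members, then genes of synthesis, storage and breakdown, autoreceptors and further transcription factors, with crosses for values not well above background. Fraction 4 is the highest column for Tph2, Slc6a4, Fev, Gata3, Ddc, Gch1, Slc18a2 and Foxa2, whereas En2 and Insm1 are highest in fractions 2 and 3.

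Markers of other cells also peaked in or near coronal fraction 4. Of 7 dopamine neuron genes, 3 had their highest coronal level there (Nr4a2, Pitx3 and Aldh1a1), beside 4.50% of all probes tested, and none stood above both neighbours by more than 1 log2 unit. The dopamine transporter gene Slc6a3 read -2.60, 2.85 and 3.30 in fractions 3, 4 and 5, and Th read 1.17, 3.26 and 2.83. Th was highest in fraction 10, at 4.54. The mean log2 level of the 7 genes was -1.0, 1.25 and 1.44 in fractions 3, 4 and 5. From fraction 4 to fraction 5 the level was lower in 4 of the 7 (Th, Nr4a2, Pitx3 and Aldh1a1) and higher in Slc6a3, Lmx1a and Foxa1. Foxa1 was not well above background in fraction 3 and read -1.52 and 0.10 in fractions 4 and 5. Lmx1a read -0.36, -1.14 and -0.00 and Aldh1a1 2.77, 3.50 and 2.58 in fractions 3, 4 and 5. Of 5 genes tested for GABA neurons of the midbrain and hindbrain, Tal1 was highest in fraction 4 at 1.71, with 0.27 and 1.11 in fractions 3 and 5, and Tal2, at -4.65, was well above background in fraction 4 and not in its neighbours. The other 3 did not peak there: Gad1 read 2.16, 2.85 and 3.09, Gad2 1.88, 2.88 and 3.09, and Slc32a1 5.64, 6.27 and 6.20 in fractions 3, 4 and 5, and all 3 were higher in fraction 7. Of 3 midbrain genes tested, Pou4f1 stood above both neighbours in fraction 4 by more than 1 log2 unit, at -1.22, 0.92 and -0.39, though it was highest in fraction 1 at 1.77. Pax7 was highest in fraction 4, at -3.74, -1.25 and -2.19, and Foxb1 in fraction 5, at -1.05, -0.12 and 1.25. The median difference from the higher neighbour was 0.94 over these 3 genes. Of 6 mast cell genes tested, 3 stood above both neighbours in fraction 4 by more than 1 log2 unit, beside 1.33% of all probes tested: Mcpt4 at -2.45, 0.06 and -2.42, Cpa3 at -4.07, -2.21 and -4.34, and Cma1 at -2.94 in fraction 4 and not well above background in fractions 3 and 5. Of the other 3, Hdc, which makes histamine, was lower in fraction 4 than in its neighbours, at 0.69, -1.50 and 0.46. Tpsb2 read -1.43, -0.45 and -0.90, and Kit 1.45, 1.82 and 2.34. The mean over the 6 was -0.87 in fraction 4 and from -2.69 to -1.24 in the other coronal fractions, and Ms4a2, a defining mast cell gene, was not well above background on any array. Mast cells carry Gata2 and can carry serotonin genes. Mcpt4 and Cpa3 were also high in coronal fraction 10, at -0.42 and -1.64, where Gata2 was at its lowest, Tph2 was not well above background and Tph1 had its highest coronal level, and the part of mast cells in fraction 4 was not tested. Noradrenaline neuron genes did not peak in fraction 4: Dbh read 2.20, -0.44 and -2.17 and Slc6a2 -0.31, -2.45 and -6.59 in fractions 3, 4 and 5, the last not well above background.

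Likeness was described by Pearson's r over the 22 fractions, which share series, slide and spike-in response. Over the 15 pairs of members, r had a median of 0.44 and ran from -0.48 (Slc6a4 with Lmx1b) to 0.72 (Gata2 with Gata3). No pair exceeded 0.85, the threshold used for similarly expressed transcripts. The pairs of Tph2 with Gata3, Fev and Gata2 lay at 0.65, 0.64 and 0.62, and Tph2 with Slc6a4 at 0.44. Within the coronal series the median was 0.57, with 0.89 for Tph2 with Gata3 and 0.66 for Tph2 with Slc6a4. Within the horizontal series the median was -0.0465, and within the sagittal series 0.24. Lmx1b correlated with the other 5 members at -0.48 to 0.24.

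Few probes exceeded r = 0.85 with most members. There were none for Tph2, Slc6a4 and Fev, 1 for Gata2, 6 for Gata3 and 501 for Lmx1b. The 5 genes most like Tph2 were Pgf (0.75), Aldh1a1 (0.70), Tal1 (0.69), Pax7 (0.66) and Asap3 (0.66). These r values take in readings not well above background: Tph2 was well above it on 14 of the 22 arrays and Pax7 on 13. Those most like Slc6a4 were Ddc (0.84), Zfhx4 (0.81), Ogfod3 (0.81), Cdc42ep1 (0.81) and Cda (0.81), of which Ddc acts in the same pathway. Those most like Fev were Fxyd4 (0.77), Gchfr (0.69), Gch1 (0.68), S100a14 (0.68) and Cryba2 (0.67). Of these, Fxyd4, S100a14 and Cryba2 were well above background on only 9, 11 and 10 of the 22 arrays. Gchfr encodes the feedback regulator of the enzyme encoded by Gch1, and it read 1.37, 2.72 and -0.69 in coronal fractions 3, 4 and 5.

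The 5 genes most like Gata3 were Tal1 (0.92), C1ql4 (0.89), Dmbx1 (0.88), Pax7 (0.88) and Shox2 (0.87). Pax7 and Shox2 were each well above background on 13 of the 22 arrays and C1ql4 on 16. Tal1 encodes a partner of GATA factors in GABA neurons, and Pax7 and Dmbx1 encode homeodomain factors of the midbrain. Those most like Gata2 were Ncmap (0.86), Abcg5 (0.83), Prr5l (0.80), Apba3 (0.79) and Rbpms (0.78). Those most like Lmx1b were Rhoh (0.95), Il24 (0.94), Klk1b21 (0.93), Gm3238 (0.93) and Krtap5-1 (0.92), none of which is known as a raphe gene.

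The Lmx1b levels were also set against a spike-in control. Its log2 level correlated with the intensity of the E1A spike-in probe a107 at r = 0.75 over the 22 arrays, beside -0.54 for Slc6a4 and -0.02 to 0.18 for the other 4 members. On the 7 arrays with the slope out of range, Lmx1b lay between -2.94 and -1.24 with a median of -1.94. On the 15 in range it lay between -3.68 and -2.18 with a median of -2.88. The groups overlap, and horizontal fraction 3 was the array with the slope out of range where Lmx1b was lowest. The 3 lowest Slc6a4 levels, in sagittal fraction 1 and horizontal fractions 1 and 2, were all on such arrays. With a107 regressed out, the median r over the 15 pairs was 0.47 and Slc6a4 with Lmx1b moved from -0.48 to -0.13. The arrays with the slope out of range are also particular positions, so that position and array response cannot be told apart in the Lmx1b levels.

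**Figure D5:**
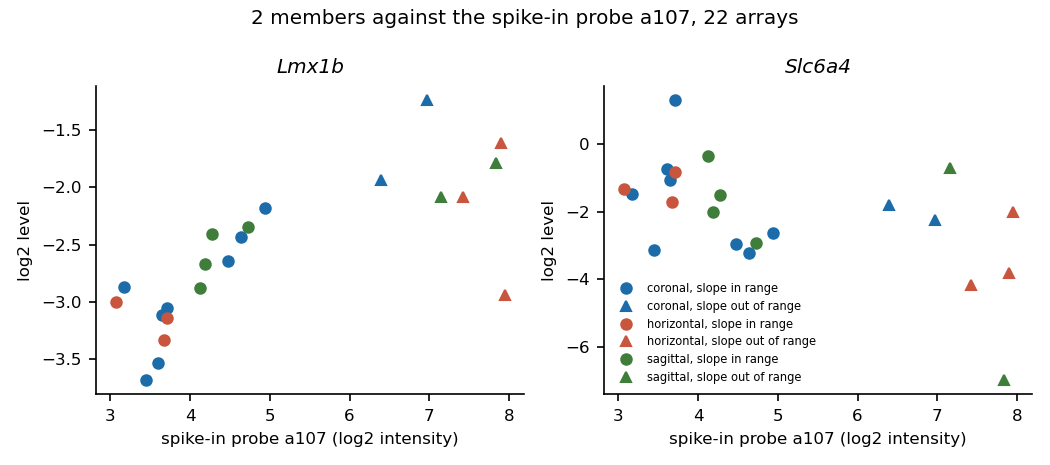
Log2 level of Lmx1b and Slc6a4 (vertical axes) against the log2 intensity of the E1A spike-in probe a107 on the 22 arrays, coloured by series, with triangles for the 7 arrays whose spike-in slope was out of range. Lmx1b is higher on most arrays with high a107 (r = 0.75), and the 6 other triangles lie above horizontal fraction 3.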

How the data were processed

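RNA from 22 fractions of 3 mouse brains was hybridised to Agilent SurePrint G3 Mouse arrays in 1 colour (Cy3). Fractions were grouped by the plane of sectioning in the labels. The labels give slabs of 500 µm, and coronal fraction 10 and sagittal fractions 1 and 6 pooled several slabs; the study's dataset description gives another thickness. The deposited scanner files hold the intensity of each spot, background-subtracted by the authors with Feature Extraction 10.10.1.1 per the file headers, on a design based on mm9. The deposited table holds log2 values that the authors normalized per array; 99.9% of 47478 matched probes lay within 0.02 of the values used here, and it served as an alternative.

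Control spots and outlier spots were left out. Spots of a probe were averaged, log2 was taken and the array's 75th percentile was subtracted. Of 55681 probes, 81 lacked a value on some array and 55600 were analysed. Names came from RefSeq accessions (26553 of 28087 matched). Each member had 1 spot per array; Lmx1b had 2 probes and the others 1. Dim replicated probes varied between spots by an SD of 0.16 to 0.26 log2 units and bright ones by 0.052 to 0.081; precision is limited by 1 array per fraction.

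limma 3.58.1 (R 4.3.3) was fitted to all 22 arrays with a parabola in slab position per series, 9 coefficients in all, and in another fit a term for coronal fraction 4. Adjusted p-values (Benjamini-Hochberg) cover the 39621 probes with a signal well above background somewhere in all 3 series, with a threshold of 0.05. The error is the scatter around curves and holds no spread between animals, so p-values measure only that scatter. Series, mouse and most slides run together. The fit was tested on simulated data. Tables and figures were made with Python 3.11.15.

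The genes named are the 6 members, genes of the serotonin lists past a position test, other genes of those lists chosen after their values were seen, markers beside a member and the 5 genes most like each member. Members and lists were chosen with earlier results of these data known, and 1 further gene of the transcription factor list is not reported here. Alternatives covered scaling, background correction, the deposited table, filters, curve degree, a107, slide, series, array range, single fractions left out, other probes and the threshold of r.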

Additional observations from a re-analysis of the deposited data

Results flagged for a closer look

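The level of Tph2 in horizontal fraction 3, -4.89 on the log2 scale and not well above background, stood apart from the other 5 horizontal fractions: its gap to the nearest of them was 0.722 of the whole range, above the critical value of 0.625 for 6 values. Because the value was not well above background, it has only an upper limit and the ratio is not exact, and fractions at ordered positions are not replicates, so the ratio is a description. That array was among those with the spike-in slope out of range. The test was run on 18 sets of values, 6 genes in 3 series, and chance flags about 1 in 20 sets.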

How the results depend on the processing

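No paired analysis was possible because a fraction number marks a different position, axis and mouse in each series. Along the coronal axis 2 members passed in the fit as reported; the number was 1 with normexp on median signals (Lmx1b) and with linear terms alone (Gata2), and 0 with slide as a fixed block, with the coronal arrays alone and with in-range arrays alone. Leaving out 1 fraction gave 1 to 3 members. The sagittal quadratic term called 1 member without scaling (Slc6a4) and 0 otherwise; the horizontal, sagittal linear and fraction 4 terms called 0 under every alternative run, also without single fractions. Above both coronal neighbours of fraction 4 there were 2 members as reported, 1 with normexp (Slc6a4; Fev at 0.84) and 0 among probes detected on all 22 arrays, where 3 members, Tph2, Slc6a4 and Fev, drop out. The median r of 0.44 was 0.54 without scaling, 0.57 within the coronal, 0.24 within the sagittal and -0.0465 within the horizontal series, 0.64 on the first slide, and 0.30 to 0.45 without single fractions. Probes above the r threshold numbered 501 for Lmx1b and 1824 at 0.80 and 78 at 0.90; for Gata3 they numbered 6, 8 and 1. Counts over all probes, as reported and then lowest and highest over settings, were 7850 (634 to 9281) coronal, 2604 (0 to 5377) horizontal, 4045 (0 to 6393) sagittal linear, 12 (0 to 1001) sagittal quadratic, 0 (0 to 9) for fraction 4 in limma and 527 (76 to 880) above both neighbours. Without single fractions the limma counts ran from 4869 to 10710, 9 to 6529, 0 to 4966, 0 to 394 and 0 to 15, in the same order. Without scaling, the median over all probes of fraction 4 minus fraction 5 moved from 0.02 to -0.34. The causes were not tested. Normexp on mean signals was not run, as the files used hold median signals, and normexp on those was chosen after seeing the data.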
